A study of Saccharomyces cerevisiae with 8 samples.

Results

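The genes described are 10 classical glucose-repressed genes of Saccharomyces cerevisiae: ADH2, ACS1, ICL1, MLS1, PCK1, FBP1, JEN1, CYB2, SUC2 and SIP4. They are 10 of 6002 protein-coding genes with a known strand in the RefSeq table of assembly R64, the assembly that sacCer3 represents. They were taken as a fixed list of names, chosen with earlier results of these data known. Shares of all genes set beside theirs are therefore descriptive only. Their open chromatin was read from ATAC-seq peak lists, as the summits (the highest point of each called sub-peak) lying between 700 bp upstream and 100 bp downstream of the annotated gene start. ATAC-seq marks accessible DNA by where the transposase Tn5 can cut. The members lie on 8 chromosomes and 0 of them on chromosome IV, the chromosome whose centromere the study excises.

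Whole populations of haploid MATa cells in the S288c background were used. The 8 samples form 4 groups of 2 independent experiments. They are cen4- at 180 min with beta-estradiol at 1 uM (the lox-flanked centromere of chromosome IV excised by Cre recombinase), CEN4* at 0 min (the same strain, untreated, before excision), CEN4 at 180 min with beta-estradiol at 1 uM (control strain without lox sites at this centromere) and CEN4 at 0 min, untreated. The sources used here give neither the growth medium and carbon source nor the promoter that drives Cre. The data are 4 deposited peak lists, carrying the strain codes 8 and 11, at 180 and 0 min. No label says which code is CEN4 and which is CEN4*, so they are called strain 8 and strain 11. Each strain and time has 1 list, so no test between conditions was possible, and every interval below covers counting error only.

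The lists held 6588 and 6838 sub-peaks for strain 8 at 180 and 0 min, and 6654 and 7093 for strain 11. Read totals are unknown, and the background pileup recovered from the lists, a measure of relative depth, was 439.2 and 413.7 in strain 8 and 512.2 and 601.7 in strain 11. As a check of the cell type, 7 of 7 MATa-specific genes had a summit in the same window in every list. Of 4 MATalpha-specific genes 2 did, and of 7 meiotic genes 2 or 3 did. Summits in such windows are common, at 73.3% to 74.5% of all protein-coding genes, so these counts describe the cells only loosely.

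On glucose, budding yeast keeps these genes at low expression. At some of them, such as SUC2, the repressor Mig1 binds upstream and recruits the Cyc8-Tup1 corepressor, while others, such as ADH2, depend mainly on activators that are inactive on glucose. When glucose runs out, the Snf1 kinase inactivates Mig1, and activators such as Cat8, Adr1 and Sip4 act at genes for the use of ethanol, acetate and lactate. The members fall into 5 roles. ADH2 and ACS1 turn ethanol into acetyl-CoA, ICL1 and MLS1 are the key enzymes of the glyoxylate cycle, and PCK1 and FBP1 are the key enzymes of gluconeogenesis. JEN1 and CYB2 import and oxidise lactate, SUC2 splits sucrose, and SIP4 is itself an activator.

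All 10 genes carried open chromatin upstream of their start in all 4 lists. Every member had at least 1 summit in the window, 14 summits in all at 180 min and 13 at 0 min in strain 8, and 14 at both times in strain 11. Among all protein-coding genes, a summit in the same window was present in 73.5% at 180 min and 73.4% at 0 min in strain 8, and in 73.3% and 74.5% in strain 11. Heights are given as relative pileup, the number of reads or fragments stacked at the summit divided by the genome-wide background of the same list. It is a linear scale on which 1 is the background, and each height is an average over all cells of the population.

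**Figure D1:**
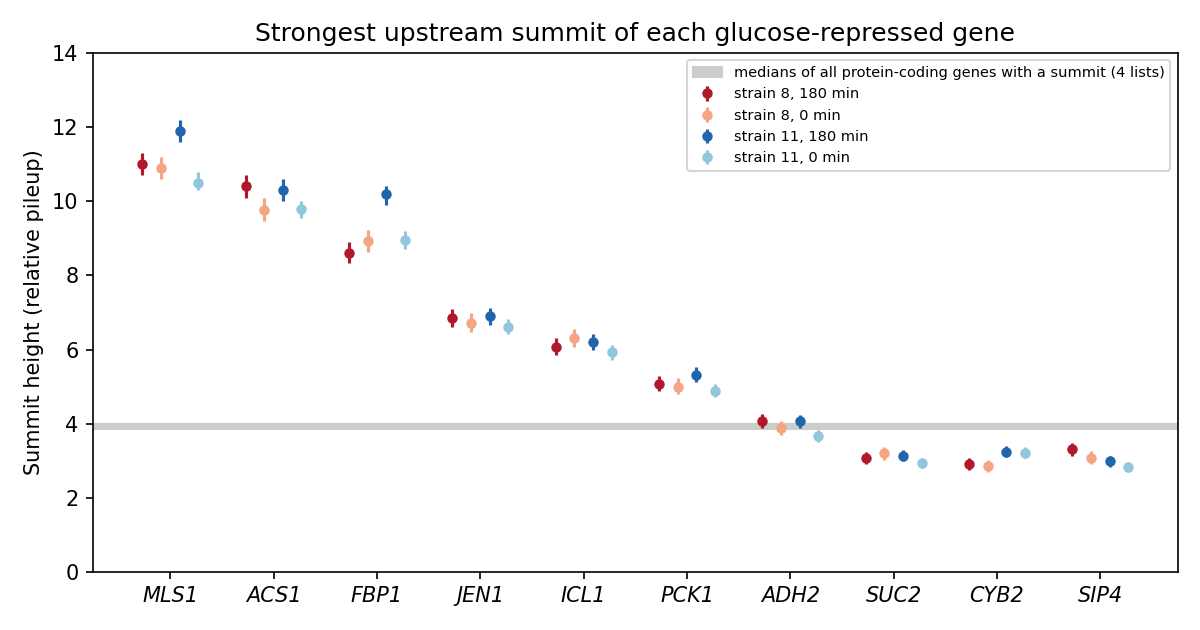
Relative pileup (linear axis, 1 is the genome-wide background) of the strongest summit of each gene in the 4 lists. Bars are exact Poisson 95% intervals for counting error, and the grey band spans the 4 medians of all protein-coding genes with a summit (3.86 to 3.99). MLS1, ACS1 and FBP1 stand between 8.61 and 11.9, while SUC2, CYB2 and SIP4 stay between 2.84 and 3.31, in all 4 lists.

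The heights spread widely among members and barely among lists. From high to low by the mean of the 4 lists the order was MLS1, ACS1, FBP1, JEN1, ICL1, PCK1, ADH2, SUC2, CYB2 and SIP4. Of the 9 pairs of neighbours in this order, 3 had overlapping ranges. ACS1 and FBP1 overlapped but kept their order in 4 of 4 lists. SUC2 and CYB2, and CYB2 and SIP4, kept it in 2 of 4, so the 3 lowest genes could not be ranked. The median member stood at 5.58 and 5.66 in strain 8 at 180 and 0 min and at 5.76 and 5.41 in strain 11. The medians of all protein-coding genes with a summit were 3.89 and 3.93 in strain 8 and 3.99 and 3.86 in strain 11. In every list, 6 members stood above and 3 below the all-gene median, and ADH2 lay on either side of it.

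The ethanol genes differed in height and shape. ACS1 (YAL054C, chromosome I 42881 to 45022, minus strand), the acetyl-CoA synthetase made without glucose, had relative pileups of 10.4 at 180 min and 9.76 at 0 min in strain 8, and 10.3 at 180 min and 9.80 at 0 min in strain 11. These values lay at percentiles 93.4 to 95.5 of all genes with a summit. Its region was wide, from 721 to 749 bp, and ended 25 to 46 bp before the gene start, nearer than the region of any other member's strongest summit. ADH2 (YMR303C, chromosome XIII 873291 to 874337, minus strand), the alcohol dehydrogenase that consumes ethanol, had 4.08 at 180 min and 3.89 at 0 min in strain 8, and 4.06 and 3.66 in strain 11. It was an average promoter by this measure, at percentiles 45.5 to 53.9. Its region was narrow, 237 to 243 bp, with the summit 339 to 342 bp upstream and the nearer edge 228 to 231 bp upstream. In strain 8 at 180 min it spanned chromosome XIII 874565 to 874807 (sacCer3).

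The summit of ADH2 lies in the 649 bp between ADH2 and the divergently transcribed UBP15, a ubiquitin protease gene. It was 308 to 311 bp from the start of UBP15 and thus slightly nearer to that gene. ACS1 shares an intergenic stretch of 876 bp with FLC2, and its summit was 386 to 392 bp from ACS1 against 485 to 491 bp from FLC2.

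Of the glyoxylate cycle genes, MLS1 (YNL117W, chromosome XIV 406358 to 408022, plus strand), malate synthase, was the highest member. Its relative pileups were 11.0 at 180 min and 10.9 at 0 min in strain 8, and 11.9 at 180 min and 10.5 at 0 min in strain 11, at percentiles 96.5 to 97.1. The authors' fold enrichment over the local background was 9.75 to 10.58. The summit, 518 to 521 bp upstream, stood 273 to 276 bp from the start of the divergent neighbour DCP2, the mRNA decapping enzyme. The region spanned chromosome XIV 405484 to 406146 in strain 8 at 180 min.

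ICL1 (YER065C, chromosome V 285241 to 286914, minus strand), isocitrate lyase, had 6.08 at 180 min and 6.31 at 0 min in strain 8, and 6.20 and 5.93 in strain 11. A second summit, 681 to 687 bp upstream, was called in 4 of 4 lists at 3.30 to 3.62, inside the same region of 510 to 549 bp. The nearest other annotated start, the tRNA gene SUP19, was over 1 kb away from the main summit, at 1190 to 1196 bp. The local background around ICL1 was raised to 1.70 to 1.83 times the genome-wide level.

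Both gluconeogenic genes were well separated from their start. PCK1 (YKR097W, chromosome XI 631152 to 632801, plus strand), phosphoenolpyruvate carboxykinase, had 5.08 at 180 min and 5.00 at 0 min in strain 8, and 5.32 and 4.89 in strain 11. The summit lay 567 to 576 bp upstream, in the 771 bp after the end of ESL2, which runs in the same direction. FBP1 (YLR377C, chromosome XII 873746 to 874792, minus strand), fructose bisphosphatase, had 8.61 at 180 min and 8.93 at 0 min in strain 8, and 10.2 and 8.95 in strain 11. Strain 11 at 180 min was the highest of the 4 lists for this gene, and its counting interval (9.89 to 10.4) overlapped that of no other list. The same held for MLS1, with an interval of 11.6 to 12.2 in that list. The FBP1 summit, 469 to 471 bp upstream, stood only 113 to 115 bp from the start of the tRNA gene YNCL0047W. The local background there was 1.82 to 2.01 times the genome-wide level, so the authors' fold was 4.56 to 5.06 where the relative pileup reached 10.2.

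The lactate genes stood far apart in height. JEN1 (YKL217W, chromosome XI 22234 to 24084, plus strand), the lactate and pyruvate permease, had 6.85 at 180 min and 6.72 at 0 min in strain 8, and 6.90 and 6.62 in strain 11. Its summit lay 665 to 669 bp upstream, near the far border of the window, in an intergenic stretch of 3894 bp. The nearest other start, of SRY1, was 3226 to 3230 bp away. CYB2 (YML054C, chromosome XIII 165533 to 167308, minus strand), the mitochondrial lactate dehydrogenase, had 2.91 at 180 min and 2.86 at 0 min in strain 8, and 3.24 and 3.22 in strain 11. It had the nearest strongest summit of the members, 243 to 249 bp upstream, 224 to 230 bp from the annotated start of the small gene YML054C-A. In strain 11 at 0 min a separate weak region of 169 bp lay over the CYB2 start itself, from 7 bp upstream to 161 bp downstream. Its summit was 120 bp into the gene, outside the window, at a relative pileup of 1.69.

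SUC2 (YIL162W, chromosome IX 37385 to 38983, plus strand), invertase, had 3.07 at 180 min and 3.20 at 0 min in strain 8, and 3.13 and 2.94 in strain 11, at percentiles 29.5 to 33.7. Its summit, 455 to 457 bp upstream, fell inside YIL163C, an annotated gene on the opposite strand with 132 bp between its start and that of SUC2. SIP4 (YJL089W, chromosome X 265926 to 268415, plus strand), a zinc cluster activator that interacts with Snf1, had a pair of separate narrow regions. The nearer summit, 304 to 308 bp upstream, stood at 3.20 at 180 min and 3.08 at 0 min in strain 8, and at 2.78 and 2.84 in strain 11. The farther summit, 691 to 694 bp upstream and 184 bp from the start of the replication gene DPB11 at 180 min, stood at 3.31 and 3.02 in strain 8, and at 2.99 and 2.83 in strain 11. The heights of the pair were within each other's counting intervals in strain 8 at 180 and 0 min and in strain 11 at 0 min.

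**Figure D2:**
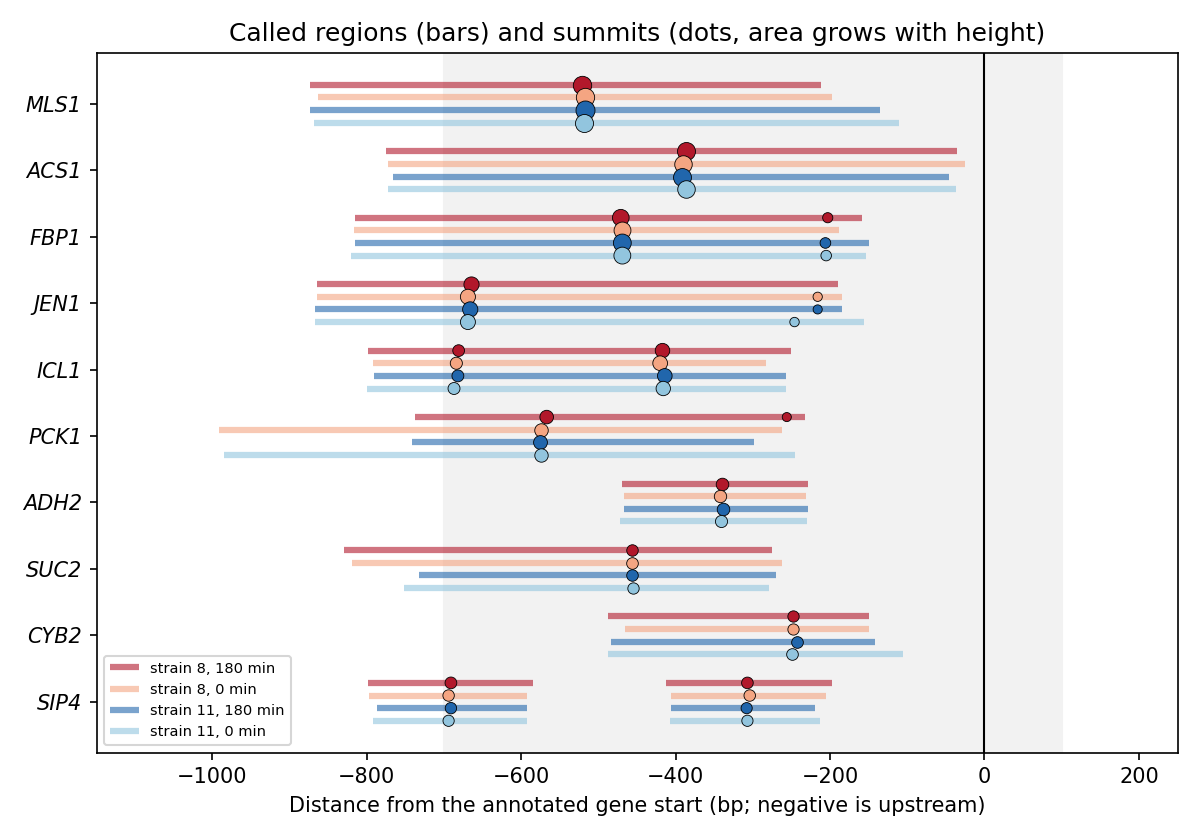
Called regions (bars) and summits (dots, area growing with relative pileup) of each gene, by distance in bp from the annotated gene start at 0; the shaded band is the window searched. The 4 lists, stacked per gene, place the strongest summits within 2 to 9 bp of each other in 9 genes, and SIP4 holds a pair of regions in every list.

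The position of the openings was almost fixed. In 9 of 10 members the strongest summit moved by at most 9 bp over the 4 lists. SIP4 was the exception, since its strongest summit was the farther of the pair at 180 min and the nearer at 0 min, in both strains. The only summits not called in every list were weak shoulders at the gene side of a taller peak. FBP1 had such a shoulder 203 to 206 bp upstream in 3 of 4 lists, all but strain 8 at 0 min, with the authors' -log10 q at 1.38 to 7.17. JEN1 had a shoulder 216 to 246 bp upstream in 3 lists, all but strain 8 at 180 min, with -log10 q at 4.36 to 13.9. PCK1 had a shoulder 256 bp upstream only in strain 8 at 180 min, with a relative pileup of 1.17 and the authors' fold at 1.17. The lists reach down to a -log10 p of 2.00.

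The study asks what happens to chromatin 180 min after beta-estradiol is added, in a strain that loses the centromere and in its control. At these promoters the heights at 180 and 0 min were close. No member reached a log2 ratio of 0.32 in either direction, the size taken here as a difference, with 0 of 10 higher and 0 of 10 lower in each strain. This size was reached by 1.84% of 4283 protein-coding genes with a matched summit as higher and 0.911% as lower at 180 min in strain 8, and by 0.74% and 0.44% of 4322 in strain 11. Read against these small shares, a count of 0 in 10 is no result about the members. Off chromosome IV, where all members lie, the share higher in strain 8 was 0.0814%.

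**Figure D3:**
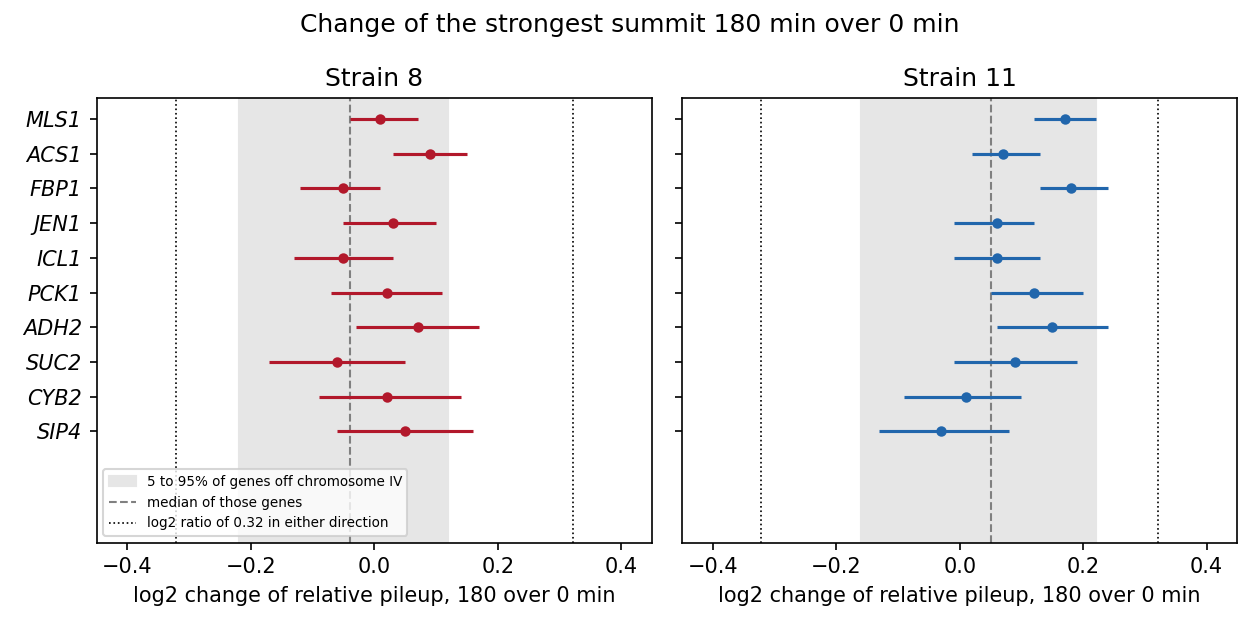
log2 ratio of relative pileup, 180 min over 0 min, at each gene's strongest 0 min summit, with exact 95% counting intervals, for strain 8 (left) and strain 11 (right). For SIP4 this is the nearer summit of its pair, which was not the strongest at 180 min. The grey band holds the middle 90% of genes off chromosome IV and the dotted lines mark a ratio of 0.32 in either direction. The members run from -0.06 to 0.09 in strain 8 and from -0.03 to 0.18 in strain 11, all inside the bands.

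In strain 8 the log2 changes (180 over 0 min) ran from -0.06 at SUC2 to 0.09 at ACS1. Their median was 0.02 over the members, -0.02 over all matched genes and -0.04 over matched genes off chromosome IV. ACS1 was the 1 member whose counting interval (0.03 to 0.15) lay wholly above 0, and 0 lay below. Such intervals lay above 0 in 18.2% and below 0 in 24.9% of all matched genes. The interval shares in this paragraph include genes on chromosome IV, where no member lies. In strain 8, 7 of 10 members had a change above 0. So did 1846 of 4283 matched genes, and 1275 of 3687 off chromosome IV. In strain 11 the changes ran from -0.03 at SIP4 to 0.18 at FBP1, with a median of 0.08 over the members and 0.05 over all matched genes. There 9 of 10 members had a change above 0, beside 2889 of 4322 matched genes and 2476 of 3738 off chromosome IV. SIP4 was followed at its nearer summit, the strongest at 0 min. With the strongest summit of each list, its change in strain 11 was 0.07. The interval lay above 0 for 5 of 10 members: FBP1 (0.18, interval 0.13 to 0.24), MLS1 (0.17, 0.12 to 0.22), ADH2 (0.15, 0.06 to 0.24), PCK1 (0.12, 0.05 to 0.20) and ACS1 (0.07, 0.02 to 0.13). None lay below 0 at these summits. Among second summits, the interval lay below 0 at ICL1 in strain 8 (-0.13, -0.24 to -0.03) and at the JEN1 shoulder in strain 11 (-0.24, -0.39 to -0.09). It lay above 0 at the farther SIP4 summit in strain 8 (0.13, 0.02 to 0.24). In strain 11 it included 0 at FBP1, ICL1 and SIP4. Of all matched genes, 36.9% had an interval above 0 and 10.3% below it, and the members' counts are read against these shares. With changes centred on the median of genes off chromosome IV, the members with an interval above 0 were 2 in strain 8 (ADH2 and ACS1, beside 27.1% of all genes) and 4 in strain 11 (FBP1, MLS1, ADH2 and PCK1, beside 24.2%). Those below 0 were 0 in each strain, beside 14.5% of all genes in strain 8 and 18.8% in strain 11.

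The strains were also set side by side at equal times. At 180 min the log2 ratio of strain 8 over strain 11 had a median of -0.03 over the members and -0.05 over all matched genes. FBP1 showed the widest gap, at -0.24 (interval -0.30 to -0.18), short of 0.32. At 0 min the medians were 0.04 and 0.02, and FBP1 stood at 0.00 (-0.06 to 0.06). CYB2 was lower in strain 8 at both times, by a log2 ratio of -0.16 (-0.27 to -0.05) at 180 min and -0.17 (-0.28 to -0.07) at 0 min. SIP4 was higher in strain 8, with log2 ratios at its nearer summit of 0.20 (0.09 to 0.31) at 180 min and 0.12 (0.01 to 0.22) at 0 min. At its farther summit they were 0.15 (0.04 to 0.25) and 0.09 (-0.01 to 0.20). The interval also excluded 0 at MLS1 at 180 min (-0.11, -0.16 to -0.05). At 0 min it did so at ICL1 (0.09, 0.02 to 0.16) and SUC2 (0.12, 0.02 to 0.23). The share of all genes with such an interval was not taken for this comparison, so these intervals do not set the members apart. No member reached 0.32 in either direction, which 1.65% of genes reached as higher and 0.861% as lower in strain 8 at 180 min, and 0.046% and 0.092% at 0 min. Without replicate lists, none of these differences could be tested.

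The openings lay far upstream. Over the members the median distance of the strongest summit from the gene start was 464 bp at 180 min and 438 bp at 0 min in strain 8, and 462.5 and 435.5 bp in strain 11. All protein-coding genes with a summit had medians of 221 and 219 bp in strain 8, and 222 and 219 bp in strain 11. Of the 10 members, 8 at 180 min and 7 at 0 min in each strain lay beyond the far quartile of all genes, which by definition holds about 25.0% of them. Only SIP4 differed in this count between the times, since its strongest summit switched between the summits of its pair. The other 9 members moved by at most 9 bp, so the longer medians at 180 min are not a shift of the members as a group. For 6 members at 180 min and 5 at 0 min, in each strain, the strongest summit was nearer to another gene's annotated start than to the member's own. Over all genes with a summit this was so for 31.8% and 31.7% in strain 8, and for 31.7% and 31.5% in strain 11. The members were ADH2, FBP1, MLS1, SUC2 and CYB2 in every list, and SIP4 at 180 min. This count takes no account of strand. At ADH2, FBP1, MLS1 and SIP4 the summit lay between divergent starts, and which gene such a shared opening serves cannot be told apart in these data. The CYB2 summit lay in the 314 bp between CYB2 and the end of YML054C-A, which runs in the same direction. The SUC2 summit lay inside YIL163C, downstream of that gene's start.

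**Figure D4:**
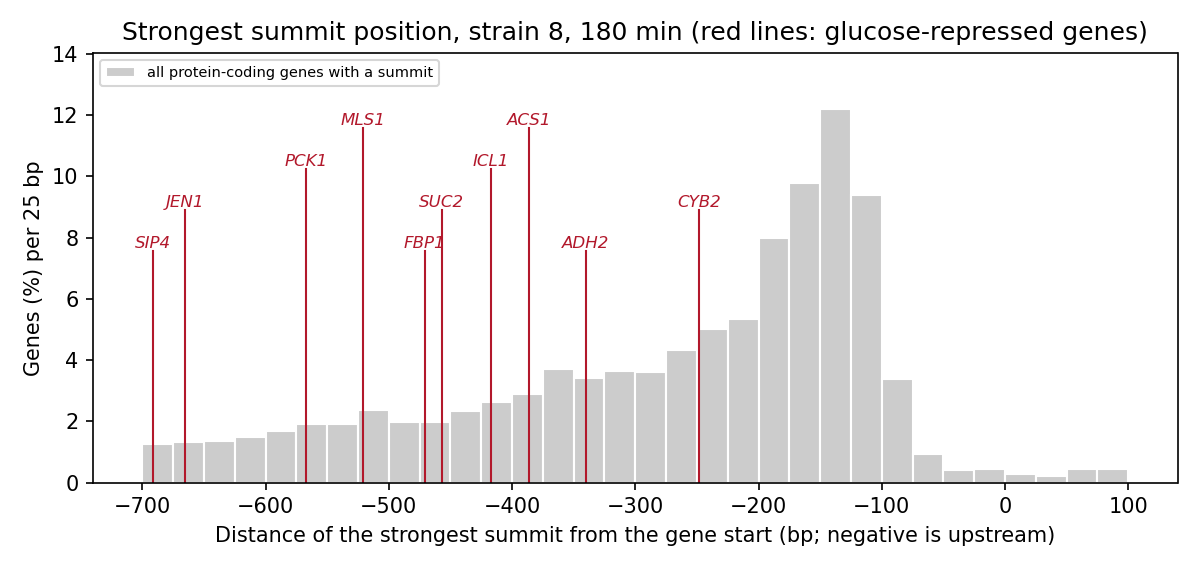
Distance of the strongest summit from the annotated gene start in strain 8 at 180 min, as the percentage of protein-coding genes with a summit per 25 bp (grey bars), with each glucose-repressed gene as a red line whose height carries no value. CYB2, at 248 bp, is the nearest and SIP4, at 691 bp, the farthest, and the median of all genes is 221 bp.

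The stretch next to the gene start was mostly outside the called regions. A region reached the 150 bp just upstream of the start in 2 of 10 members at 180 min and 2 at 0 min in strain 8, and in 4 and 3 in strain 11. Among all genes with a summit in the window the share was 83.5% and 83.9% in strain 8, and 82.8% and 83.7% in strain 11. Among the genes whose strongest summit lay beyond the far quartile it was 57.0% and 57.9% in strain 8, and 56.3% and 58.2% in strain 11. ACS1 and CYB2 were reached in 4 of 4 lists, MLS1 in both lists of strain 11, and FBP1 in strain 11 at 180 min. Some of these sat at the border of the stretch, since the nearer edge lay 149 bp upstream at CYB2 in both lists of strain 8 and 150 bp upstream at FBP1 in strain 11. The other 6 members were not reached in any list. At 100 bp upstream, 10.0% of members (ACS1) were covered in all 4 lists, against 55.8% and 56.2% of all 6002 genes in strain 8 and 55.0% and 57.2% in strain 11. This measure was chosen after the positions had been seen, and a stretch outside the called regions is under the authors' threshold, not necessarily closed.

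**Figure D5:**
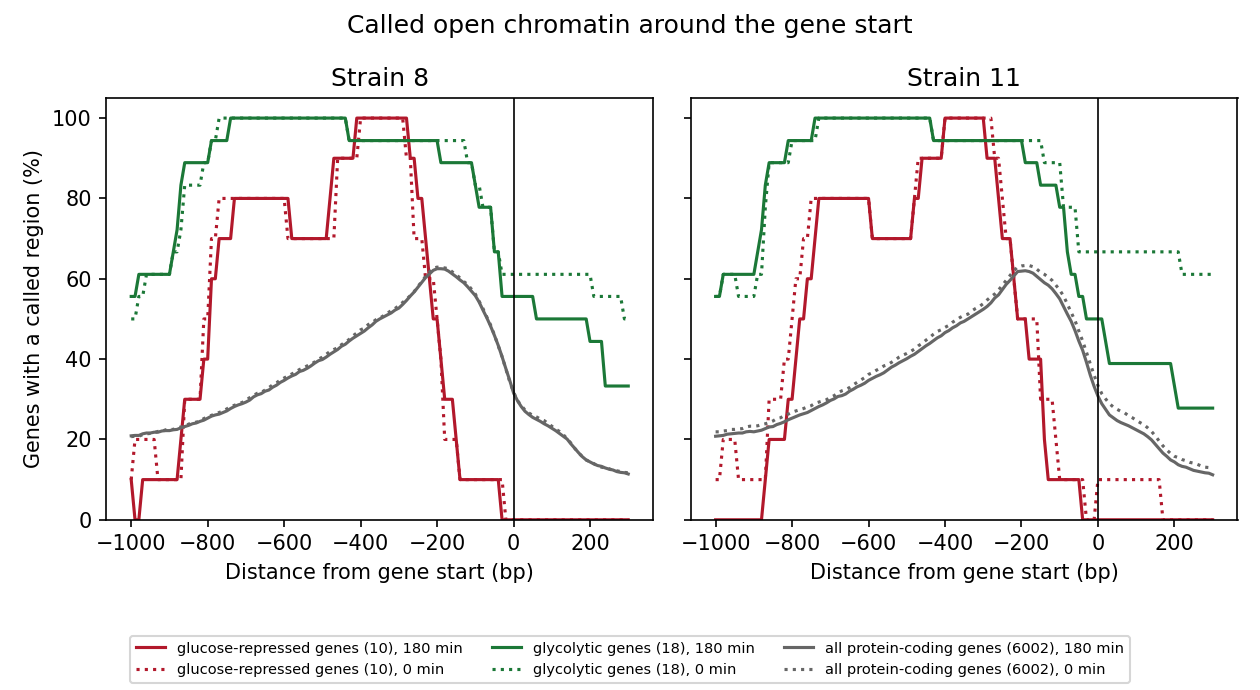
Percentage of genes with a called region at each distance from the gene start (bp, negative is upstream), at 180 min (solid) and 0 min (dotted), in strain 8 (left) and strain 11 (right). The members (red) reach 100% at 400 bp upstream and 10.0% at 100 bp upstream; the glycolytic genes (green) stand at 77.8 to 88.9% there, and all protein-coding genes (grey) at 55.0 to 57.2%.

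Glycolytic genes, most of which yeast uses on glucose, gave another picture next to the start. A set of 18 genes for enzymes of glycolysis and fermentation had a summit in 18 of 18 genes in every list. The set includes HXK1, which is induced when glucose runs low, so it is not made only of genes used on glucose. Their median strongest summit lay at a distance close to that of the members, 411 and 408.5 bp in strain 8 and 409.5 bp at both times in strain 11. The heights were greater, with medians of 9.60 and 9.79 in strain 8 and 10.6 and 9.66 in strain 11. A called region reached the last 150 bp in 16 of 18 at 180 min and 17 of 18 at 0 min in strain 8, and in 15 and 17 in strain 11. The highest were TDH3 (glyceraldehyde phosphate dehydrogenase), at 15.2 and 15.4 in strain 8 and 21.0 and 18.5 in strain 11, GLK1 (glucokinase), at 13.9, 12.2, 13.7 and 11.7 in the same order, and PGK1 (phosphoglycerate kinase), at 11.5, 12.3, 12.7 and 11.2. The highest member, MLS1, thus stood near PGK1. No set test was made between the lists.

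Of 25 genes for Snf1 kinase subunits, glucose repressors, activators and related factors, 21 had a summit in each list, beside the 73.3% to 74.5% of all protein-coding genes given above. The other 4 had none in any list: GAL83, a Snf1 kinase subunit, and the activator genes ADR1, ERT1 and HAP4. The medians of those with a summit were 5.57 and 5.69 in strain 8 and 5.38 and 5.29 in strain 11. A called region reached the last 150 bp in 16 of 25 at both times in strain 8, and in 16 and 17 of 25 at 180 and 0 min in strain 11. Over all 6002 protein-coding genes, with or without a summit, this share was 61.2% to 62.8%. HXK2, the hexokinase with a role in repression, was the highest, at 10.7 and 11.6 in strain 8 and 12.5 and 10.8 in strain 11. CYC8, the corepressor, stood at 8.54 and 9.90 in strain 8 and at 10.7 and 9.51 in strain 11. MIG1, the repressor itself, stood at 9.49 and 8.76 in strain 8 and at 10.4 and 8.50 in strain 11. By a log2 ratio of 0.32 or more, 1 regulator was higher at 180 min in each strain and 0 were lower. They were REG1, a subunit of the phosphatase that counters Snf1, in strain 8 (log2 change 0.35, and -0.08 in strain 11) and MTH1, a negative regulator of glucose transporter genes, in strain 11 (0.35, and 0.18 in strain 8). Both lie on chromosome IV. Of all matched genes that reached this size as higher, 3 of 79 lay off chromosome IV in strain 8, and 29 of 32 in strain 11. They were named after their values were seen, as were REG2 and HXK1 below.

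A list of 20 other genes that depend on Cat8, Adr1 or Snf1, or serve respiratory carbon sources, had a summit in 16 of 20 in each list, and YAT1, CTA1, GUT1 and YIG1 had none in any list. Its medians were 7.08 and 6.92 in strain 8, and 7.12 and 6.69 in strain 11. The strongest summits of this list had median distances of 387.5 to 391 bp. A called region reached the last 150 bp in 11 of 20 at 180 min and 12 of 20 at 0 min in each strain. That is near the 61.2% to 62.8% of all 6002 genes and above the 2 to 4 of 10 members. The low coverage next to the start was thus not shared by these other genes. MDH2 (the cytosolic malate dehydrogenase of gluconeogenesis) led with 11.0 and 10.8 in strain 8 and 11.3 and 9.84 in strain 11. IDP2 (cytosolic isocitrate dehydrogenase) had 9.02 and 9.53 in strain 8 and 10.3 and 9.30 in strain 11. CRC1 (the mitochondrial carnitine carrier) had 9.20 and 9.48 in strain 8 and 9.96 and 8.98 in strain 11. In strain 8, 0 of 16 matched genes reached 0.32 in either direction. In strain 11, 1 was higher at 180 min, REG2, a relative of REG1, at a log2 change of 0.35 (0.03 in strain 8). Of the glycolytic genes, HXK1, a hexokinase induced when glucose runs low, reached it as higher in strain 11, at 0.34 (0.26 in strain 8). No gene of these lists reached it in both strains.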

How the data were processed

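Only peak lists were used. Per the submitters' processing notes, the build was sacCer3 and the tools included MACS2 2.2.4, Bowtie2 2.3.4.3, Picard, SAMtools and HOMER, without their roles. Tn5 shifting, filters and pooling of experiments were not given in these notes. The deposited lists hold, per sub-peak, a score, the authors' fold enrichment (a linear ratio), the -log10 p and -log10 q by the authors, and the summit offset (other values were not used). These are the authors' own and were used only to describe and rank.

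The summit pileup and local background were solved from fold = (pileup + 1)/(background + 1) and the Poisson upper tail; 99.1% to 99.8% of pileups came out whole within 0.05. The solver was tested on simulated data. Pileups were divided by the lowest background of the list. The strongest 0 min summit was matched to the nearest 180 min summit within 100 bp. Ratios have exact binomial and heights exact Poisson 95% intervals (scipy 1.17.1), for counting error only. Genes sharing a summit count separately.

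Members and gene lists were chosen with earlier results of these data known. Named genes are all members and the 3 highest of each other list; the exceptions are stated. The planned motif search was not made, and no sequence was used here. Window, threshold, measure, scaling and match distance were varied.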

Additional observations from a re-analysis of the deposited data

How the results depend on the processing

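No paired analysis was possible because the lists carry no replicate number, and no replicate could be left out. With a window of 400 bp upstream in place of 700 bp, members with a summit numbered 6 at 180 min and 5 at 0 min in strain 8, and 6 at both times in strain 11, since most summits lie farther upstream. ICL1, MLS1 and SUC2 had none there in any list. All 10 members had a summit with a window of 1000 bp, with -log10 q of at least 50, when a region touching the window sufficed, and with lists of equal length. The count of members past the fold was 0 in both directions and both strains with the authors' fold enrichment, with centring and within 50 bp. With the shorter window it was 0 of the 4 members that could be matched in strain 8 and 0 of 6 in strain 11. A larger fold could only give 0 again. Centring shifted changes by 0.04 in strain 8 and -0.05 in strain 11. Of 20 member changes, 5 left their counting interval when the authors' fold enrichment was used. FBP1 in strain 8 stood at 0.02 by that measure, against -0.05. In strain 11, MLS1 stood at 0.10 against 0.17 and ACS1 at 0.02 against 0.07, so the size of these rises depends on the measure. JEN1 stood at 0.10 against 0.03 in strain 8 and at 0.13 against 0.06 in strain 11. Why weak shoulders were called in some lists and not in others was not tested.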

Other observations

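Beyond the window, PCK1 had a summit about 900 bp upstream, inside the end of ESL2, the neighbouring gene. It was found after the lists had been seen. In strain 8 its relative pileup was 1.44 at 180 min and 1.84 at 0 min, a log2 change of -0.35 (counting interval -0.51 to -0.20). In strain 11 it was not called at 180 min and stood at 1.72 at 0 min. At 0 min it belonged to the same region as the main PCK1 summit in both strains, so that region was 731 bp wide in strain 8 and 740 bp in strain 11, against 507 and 444 bp at 180 min. The main PCK1 summit differed little over the same lists, with log2 changes of 0.02 in strain 8 and 0.12 in strain 11. No other member had a summit between 700 and 1000 bp upstream in any list.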
